A study of Drosophila melanogaster with 32 samples.

Results

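The RNA of whole adult male flies of the Zhr1 stock was compared with that of Oregon R males, the wild type, in Drosophila melanogaster. The members are 8 libraries, 4 of Zhr1 males and 4 of wild-type males, chosen by their labels from 32 libraries in all, of which 16 are male. Zhr1 is an X chromosome that lacks the large pericentromeric block of a satellite with a 359 bp unit, and the Zhr1 males carried a wild-type Y chromosome that was not translocated. Each library was made from 10 pooled flies, 3 collected at 6–8 h, 4 at 14–16 h and 3 at 22–24 h after hatching. The stocks were not made isogenic, so the deletion and the rest of the genetic background cannot be told apart in any comparison with wild type. Males of 2 further mutant stocks, PofD119, a deletion in the gene for the chromosome 4 binding protein Pof, and PoX2Df1.688, a deletion of a short array of the satellite on X, as well as females of the Zhr1 stock and of wild type, were used only beside the main comparison. Counts were deposited for genes, for repeats summed by name, and for individual blocks of this satellite.

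Satellite DNA is made of short units repeated head to tail in long arrays, mostly in the heterochromatin around centromeres. The satellite deleted here, the family whose buoyant density gives the PoX2Df1.688 allele its name, is called the 359-bp satellite below after its unit. Its largest arrays lie in the pericentromeric heterochromatin of X, with further arrays at the base of 3L and short dispersed arrays in the euchromatin of X. The pericentromeric X block is known as the locus Zygotic hybrid rescue: its removal rescues hybrid daughters that otherwise die when the block from a D. melanogaster father fails to separate at mitosis in embryos of a D. simulans mother. The consensus of 1 unit of the X heterochromatic array is given because it is the sequence whose large array the deletion removes and because it was among the queries from which the blocks were annotated. It is 359 bp long and 69.1% A or T. Bases 1 to 300 are shown, in lower case throughout because no stretch of them is set apart.
dmel_Xhet: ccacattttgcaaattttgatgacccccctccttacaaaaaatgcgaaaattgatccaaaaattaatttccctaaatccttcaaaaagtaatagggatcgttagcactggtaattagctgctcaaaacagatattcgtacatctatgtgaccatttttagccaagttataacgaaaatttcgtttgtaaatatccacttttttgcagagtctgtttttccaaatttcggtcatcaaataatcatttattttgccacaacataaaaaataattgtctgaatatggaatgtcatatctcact
The other 8 query units ranged from 68.3% to 85.3% identity with it.

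Library depth differed with genotype. The Zhr1 male libraries held 13482770 to 18507632 gene-assigned read pairs, against 27141380 to 37992591 in the wild-type male libraries, so a single read weighs more in Zhr1. Levels are given as counts scaled to a common library size (CPM) by the trimmed mean of M values, and tests are edgeR quasi-likelihood F tests with Benjamini–Hochberg adjusted p-values, called below 0.05. Of 13503 genes tested, 3097 (22.9%) differed between Zhr1 and wild-type males, 1699 (12.6%) higher and 1398 (10.4%) lower in Zhr1. All counts of called members in the gene lists below are to be read beside these shares. Most differences were modest, with a median absolute log2 fold change of 0.63 among the called genes, and in 930 of them it was at least 1. Among genes, 3135 had 4 and 4 libraries that did not overlap. Single libraries stood apart from others of their group in some transcripts. Zhr1 replicate 4 was high in antimicrobial peptide transcripts, Zhr1 replicate 2 in eggshell transcripts, and wild-type replicate 2 in yolk protein, eggshell and mitochondrial transcripts. Zhr1 females, used below as a second look at the same stock, held reads on Y-linked genes: the 27 Y-linked Su(Ste) entries had 643, 567, 544 and 542 reads in the 4 Zhr1 female libraries, against 0, 1, 0 and 0 in the 4 wild-type female libraries. The PofD119 and the PoX2Df1.688 female libraries had 1 such read each in all. Over all 113 Y-linked genes the Zhr1 female libraries held 713, 680, 619 and 613 reads, against 50, 53, 47 and 53 in wild-type females, with 250 reads in all 4 PofD119 and 34 in all 4 PoX2Df1.688 female libraries. In whole flies, fewer cells of a type and less RNA per cell cannot be told apart.

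Male tissue was present in all 8 libraries. The testis gene bol, needed for entry into meiosis, was at 428, 418, 434 and 460.1 CPM in Zhr1 males and 492, 378, 446 and 446 CPM in wild-type males, and the ranges overlapped. The accessory gland gene Acp36DE was at 1881, 1778, 1508 and 1754 CPM in Zhr1 males and 1673, 1586, 1408 and 1532 CPM in wild-type males. The oocyte determinant osk was low, at 0.295, 3.89, 0.775 and 0.647 CPM in Zhr1 males and 0.391, 6.78, 0.254 and 0.37 CPM in wild-type males, and it was highest in wild-type replicate 2.

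Transcripts of the 359-bp satellite differed block by block, with total levels that overlapped between the groups. All 652 blocks together had 302, 281, 355 and 386 CPM in Zhr1 males and 387, 353, 377 and 274 CPM in wild-type males (difference of mean log2 CPM -0.07, exact permutation p = 0.8, two-sided). By contrast, 352 of the 652 blocks had no read in any Zhr1 male library. In wild-type males these blocks held 6781, 4718, 7566 and 3857 reads, from 47.2% to 51.0% of the block reads of a library. Since their reads in Zhr1 males chose these blocks, their male levels are a description. Most of them, 338, lie on unplaced scaffolds, 10 lie on X, 2 on 3L and 2 on 2L. Scaffolds and chromosome arms together, the 352 blocks lie on 317 sequences. Females of the same stock, whose libraries did not choose these blocks, showed the same absence: the 352 blocks held 10, 3, 4 and 2 reads in Zhr1 females, against 5435, 6316, 6520 and 5217 reads in wild-type females. In males of the other mutants the same blocks averaged 199 CPM in PofD119 and 373 CPM in PoX2Df1.688. The remaining 300 blocks were at 302, 281, 355 and 386 CPM in Zhr1 males and 198, 178, 185 and 145 CPM in wild-type males. The same choice keeps all block reads of Zhr1 males in this set and takes reads from wild type only. Their higher level in every Zhr1 library is therefore also a description, and no rise can be read from it. In males of the other mutants they averaged 183 CPM in PofD119 and 309 CPM in PoX2Df1.688.

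**Figure D1:**
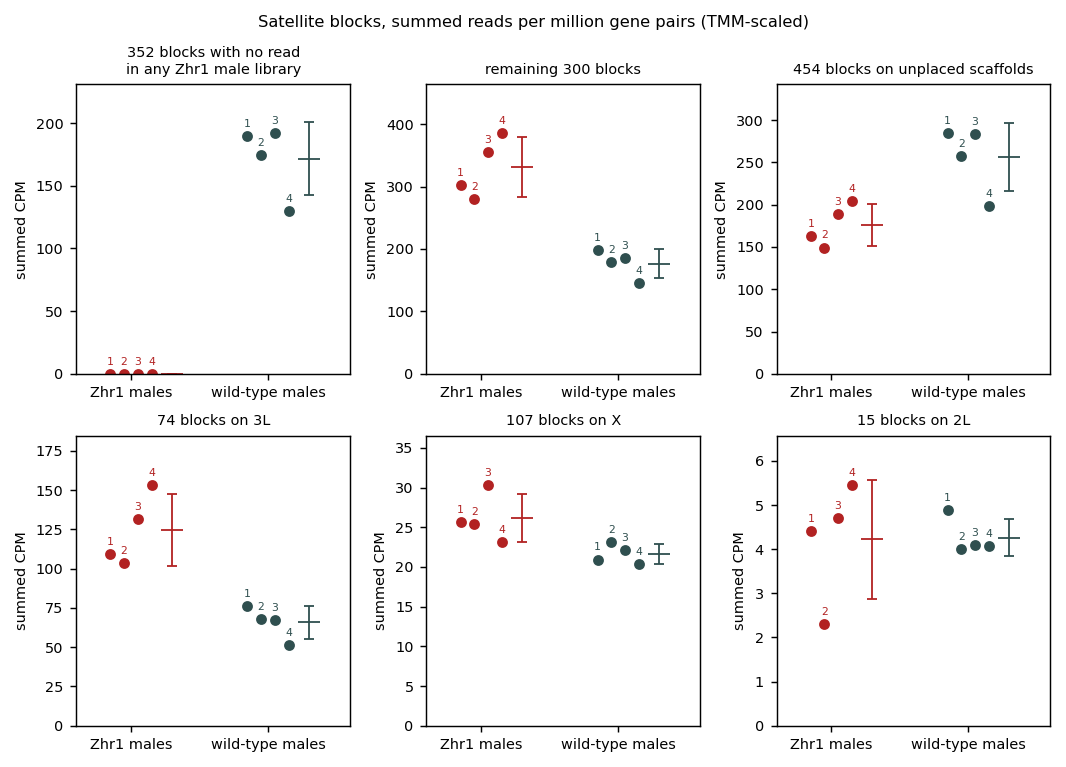
Summed levels of 359-bp satellite blocks in CPM (vertical axis, linear and starting at 0) for 6 sets of blocks, with Zhr1 males left and wild-type males right. Points are single libraries with their replicate number, and the bar beside them gives mean and SD (n = 4). The 352 blocks without a read in Zhr1 males hold 130 to 192 CPM in wild-type males. The other 300 blocks are higher in all Zhr1 libraries, but both sets were chosen by the reads of Zhr1 males. That choice takes reads from wild type only, so both panels are a description.

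Block by block, lower calls lay mainly on unplaced scaffolds. Of 278 blocks with enough reads to test, 228 (82%) differed, 72 (25.9%) higher and 156 (56.1%) lower in Zhr1 males. When the block table was scaled by its own totals in place of the gene totals, 44 blocks were higher and 182 lower. Of 196 tested blocks on unplaced scaffolds 42 were higher and 137 lower. Of 44 on 3L 17 were higher and 12 lower, of 32 on X 12 were higher and 4 lower, and of 6 on 2L 1 was higher and 3 lower. The 5 most reduced blocks by the naming rule all had 0 reads in the 4 Zhr1 libraries and lie on unplaced scaffolds. The first of these, on scaffold 211000022280545 at positions 1 to 6000, held 10.2, 9.30, 14.0 and 7.26 CPM in wild-type males, at least 54.3-fold more than the level that 3 reads in a Zhr1 library would give. The other 4 were at least 27.8-fold to 34.6-fold lower in Zhr1 males on the same basis.

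Some blocks were higher. The block at 3L:24656083-24657098, in the pericentromeric part of 3L, was at 2.36, 1.47, 3.04 and 3.52 CPM in Zhr1 males and 0.224, 0.444, 0.28 and 0.134 CPM in wild-type males (log2 fold change 3.25 ± 0.35, adjusted p = 2.6e-10). A block on scaffold 211000022279069 was at 3.77, 3.57, 4.59 and 4.1 CPM in Zhr1 males and 0.224, 0.37, 0.509 and 0.269 CPM in wild-type males (log2 fold change 3.51 ± 0.34, adjusted p = 2.6e-11). Neither pair of ranges overlapped. Summed over the arm, 3L blocks were at 109, 104, 131 and 153 CPM in Zhr1 males and 76.2, 68.2, 67.3 and 51.4 CPM in wild-type males (difference of mean log2 CPM 0.92, exact permutation p = 0.0286, the smallest p that 4 against 4 libraries allow), with 54.6 CPM in PofD119 males and 110.2 CPM in PoX2Df1.688 males. X blocks, the dispersed euchromatic arrays among them, were at 25.6, 25.5, 30.4 and 23.1 CPM in Zhr1 males and 20.9, 23.1, 22.2 and 20.4 CPM in wild-type males (difference of mean log2 CPM 0.27, exact permutation p = 0.0286), a smaller difference in which the lowest Zhr1 library lay just above the highest wild-type library, and were higher in the other mutants, with 52.9 CPM in PofD119 males and 37.5 CPM in PoX2Df1.688 males. Unplaced blocks were at 162, 149, 189 and 204 CPM in Zhr1 males and 285, 257, 284 and 198 CPM in wild-type males (difference of mean log2 CPM -0.54, exact permutation p = 0.0571), and 1 Zhr1 library, replicate 4, reached above the lowest wild-type library. Every alignment of a multi-mapping read was counted, so a read from 1 array can count in several near-identical blocks, and a sum over blocks is not a number of molecules.

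Satellite names were also counted in the repeat table. SAR_DM, a satellite name with 776 annotated copies, was at 326, 306, 378 and 421 CPM in Zhr1 males and 391, 353, 379 and 280.00 CPM in wild-type males (difference of mean log2 CPM 0.03, exact permutation p = 0.886). All 652 blocks of the 359-bp satellite together had similar values, 302, 281, 355 and 386 CPM in Zhr1 males and 387, 353, 377 and 274 CPM in wild-type males. Whether the same reads were counted in both was not tested, so SAR_DM is not an independent view. Responder (RSP), a satellite of chromosome 2 known as the target of Segregation Distorter, was at 1.0, 1.53, 1.33 and 1.94 CPM in Zhr1 males and 8.92, 5.96, 6.26 and 6.89 CPM in wild-type males (difference of mean log2 CPM -2.27, exact permutation p = 0.0286), lower in every Zhr1 library. It averaged 2.26 CPM in PofD119 males and 2.17 CPM in PoX2Df1.688 males, so low levels were not limited to Zhr1. HETRP_DM was at 36.5, 34.9, 48 and 55.9 CPM in Zhr1 males and 46.4, 31.3, 36.1 and 43.5 CPM in wild-type males (difference of mean log2 CPM 0.15, exact permutation p = 0.486), and its ranges overlapped.

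Transposon transcripts were higher in sum in Zhr1 males. All 1129 transposon names together were at 59096, 55801, 63941 and 63554 CPM in Zhr1 males and 51010.00, 47377, 47509 and 42763 CPM in wild-type males (difference of mean log2 CPM 0.36, exact permutation p = 0.0286), with no overlap. The other mutants were also above wild type, with 58934 CPM in PofD119 males and 63565 CPM in PoX2Df1.688 males on average. Of 720 names tested, 229 (31.8%) differed, 158 (21.9%) higher and 71 (9.86%) lower. Scaled by the totals of the repeat table itself, 122 were higher and 129 lower, so the excess of higher names over lower ones depended on scaling to the gene totals. The 16 names in the plot of transposon names kept their call and direction under every alternative tried.

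The telomeric retrotransposons, HeT-A, TART and TAHRE, maintain fly chromosome ends in place of telomerase. Of 7 telomeric names tested 4 were higher and 1 lower in Zhr1 males. TAHRE was at 439, 427, 458 and 457 CPM in Zhr1 males and 76.5, 71, 62.3 and 60.9 CPM in wild-type males (log2 fold change 2.72 ± 0.10, adjusted p = 1.8e-15). TART-A was at 3701, 3547, 3826 and 4239 CPM in Zhr1 males and 836, 915, 817 and 783 CPM in wild-type males (log2 fold change 2.19 ± 0.08, adjusted p = 9.2e-16). Both were higher in all Zhr1 libraries, and both were also above wild type in PoX2Df1.688 males. TAHRE averaged 69.5 CPM in PofD119 males and 184 CPM in PoX2Df1.688 males. TART-A averaged 2998 CPM in PofD119 males and 4748 CPM in PoX2Df1.688 males. TART_B1 moved the other way, at 119.6, 96.8, 107 and 122 CPM in Zhr1 males and 1258, 1301, 1275 and 1260.1 CPM in wild-type males (log2 fold change -3.51 ± 0.11, adjusted p = 3.9e-16), with 366 CPM in PofD119 males and 300.2 CPM in PoX2Df1.688 males. HETA was at 635, 613, 723 and 776 CPM in Zhr1 males and 516, 416, 456 and 427 CPM in wild-type males (log2 fold change 0.60 ± 0.09, adjusted p = 3.6e-05), with 355 CPM in PofD119 males and 689.9 CPM in PoX2Df1.688 males. In Zhr1 females the log2 fold changes against wild-type females were 2.96 for TAHRE and -4.26 for TART_B1. Many annotated copies of these names lie on Y, 144 of 279 for TAHRE, 144 of 318 for TART-A, 214 of 408 for HETA and 16 of 39 for TART_B1. Whether the Y-linked reads of Zhr1 females bear on the female values was not tested.

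**Figure D2:**
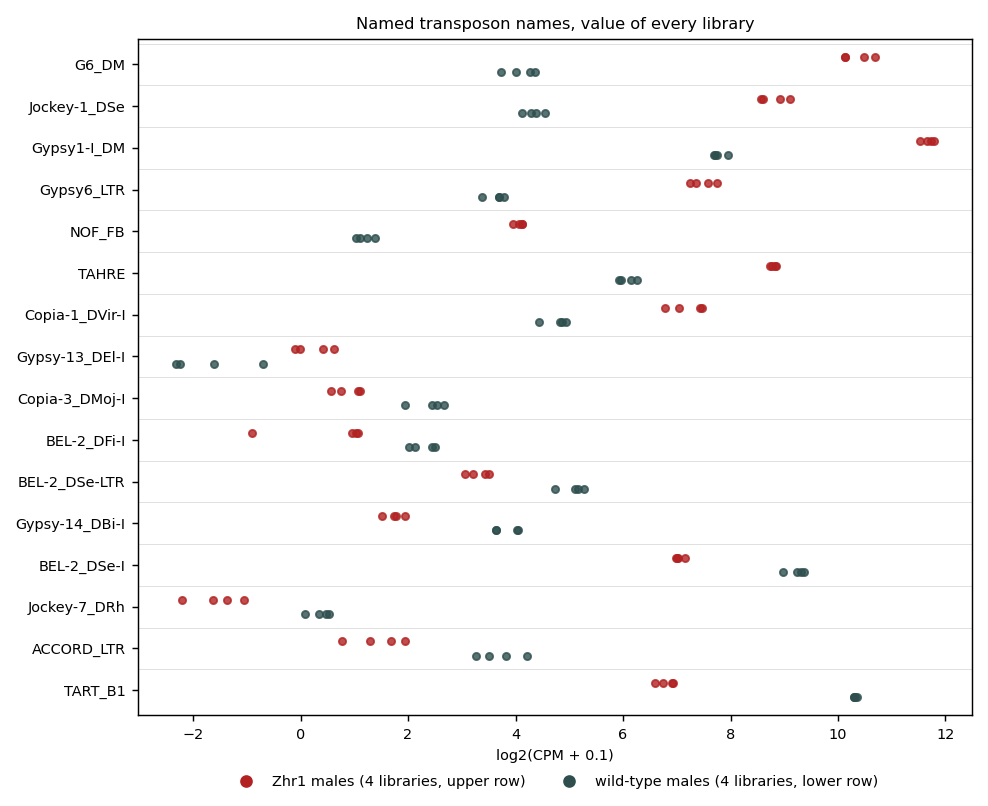
Level of the 16 named transposon names as log2(CPM + 0.1) (horizontal axis), ordered by fold change. Each point is a library, with the 4 Zhr1 libraries in the upper row of each name and the 4 wild-type libraries in the lower row. G6_DM is the name farthest to the higher side in Zhr1 and TART_B1 the one farthest to the lower side.

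Among the remaining elements the largest differences were in non-LTR and Gypsy-type LTR retrotransposons. G6_DM, a non-LTR element, was at 1121, 1126, 1436 and 1651 CPM in Zhr1 males and 20.4, 13.2, 19.2 and 16 CPM in wild-type males (log2 fold change 6.27 ± 0.23, adjusted p = 1.6e-15). Jockey-1_DSe, a non-LTR name first described in D. sechellia, was at 387, 378, 484 and 550.4 CPM in Zhr1 males and 23.2, 20.6, 19.5 and 17.4 CPM in wild-type males (log2 fold change 4.48 ± 0.15, adjusted p = 5.4e-16). In the other mutants G6_DM averaged 12.7 CPM in PofD119 males and 13.3 CPM in PoX2Df1.688 males, and Jockey-1_DSe 16.2 CPM in PofD119 males and 10.4 CPM in PoX2Df1.688 males. Gypsy1-I_DM, the internal part of an LTR element, was at 3209.96, 2938, 3418 and 3553 CPM in Zhr1 males and 248, 214, 206 and 209 CPM in wild-type males (log2 fold change 3.90 ± 0.10, adjusted p = 2.8e-18), but the other mutants had similar levels, 2739 CPM in PofD119 males and 2902 CPM in PoX2Df1.688 males, so wild type stood alone at the low level. The same held for Gypsy6_LTR, with 181 against 12.4 CPM in Zhr1 against wild-type males, and 125 CPM in PofD119 males and 90.1 CPM in PoX2Df1.688 males. NOF_FB, the NOF element carried by foldback transposons, had a log2 fold change of 2.91.

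Lower names included BEL-2_DSe-I, an LTR element of the BEL type, at 131, 127, 142 and 129 CPM in Zhr1 males and 656, 606, 635 and 504 CPM in wild-type males (log2 fold change -2.18 ± 0.10, adjusted p = 8.3e-14), and 703 CPM in PofD119 males and 145 CPM in PoX2Df1.688 males. Gypsy-14_DBi-I, of whose 39 annotated copies 35 lie on X, was at 2.77, 3.77, 3.32 and 3.23 CPM in Zhr1 males and 12.3, 16.4, 12.3 and 16.1 CPM in wild-type males (log2 fold change -2.12 ± 0.19, adjusted p = 9.2e-09). Its ranges did not overlap in males. In females its log2 fold change was 0.38 (adjusted p = 0.522). By family name, 45 of 240 tested Gypsy names were higher and 21 lower, and 14 of 65 BEL names were higher and 10 lower. Of 28 Copia names 6 were higher and 5 lower, and of 54 Jockey names 5 were higher and 7 lower. Over all repeat names tested 21.9% were higher and 9.86% lower. The study singled out G6 and Jockey-1 on these samples, so the direction of G6_DM and Jockey-1_DSe here is not independent evidence. Names that begin with Jockey-1 went both ways. Jockey-1_DEr (log2 fold change -0.47, adjusted p = 0.0074) and Jockey-1_DYa (log2 fold change -0.53, adjusted p = 0.0088) were lower. The remaining Jockey-1 names tested were not called.

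None of the 10 tested genes nearest to the deletion was called. The pericentromeric X block lies beyond the most proximal annotated genes of X, so the genes nearest to that end are the nearest neighbours of the deleted DNA. The last of these 10, ATbp at X:23106003-23108331, was at 2.95, 3.06, 2.55 and 3.95 CPM in Zhr1 males and 4.33, 3.96, 2.9 and 4.54 CPM in wild-type males (log2 fold change -0.33 ± 0.22, adjusted p = 0.291). The next, su(f), which encodes a subunit of the cleavage factor that acts on the 3′ ends of mRNAs, was at 20.2, 17.7, 19.7 and 19.3 CPM in Zhr1 males and 18.2, 17.4, 19.8 and 19.5 CPM in wild-type males (log2 fold change 0.04 ± 0.08, adjusted p = 0.797). Over the 10 genes log2 fold changes ran from -0.51 in CG17162 to 0.17 in asRNA:CR43480. In the proximal 1 Mb of X, 5 of 43 tested genes were called (11.6%), 2 higher and 3 lower, against 5.97% to 30.8% over the windows of the same size along X. The number was 3 without Zhr1 replicate 2, without wild-type replicate 1 or without wild-type replicate 4.

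By chromosome, X held higher and lower calls. Of 2075 X-linked genes tested 210 (10.1%) were higher and 167 (8.05%) lower, with a median log2 fold change of -0.01. Over all genes tested 12.6% were higher and 10.4% lower. Of 94 genes on chromosome 4 12 were higher and 2 lower. None of the 8 members of the MSL complex list, the dosage compensation machinery of the male X, was called. The noncoding RNA roX1, which guides the complex to X, was at 1001, 916, 1015 and 1031 CPM in Zhr1 males and 997, 877, 993 and 926 CPM in wild-type males (log2 fold change 0.06 ± 0.06, adjusted p = 0.515). The male-limiting subunit msl-2 was at 36.2, 33.6, 31 and 29.3 CPM in Zhr1 males and 27.8, 26, 31.6 and 29.6 CPM in wild-type males (log2 fold change 0.18 ± 0.08, adjusted p = 0.143). Nor was any of 10 sex determination genes called, dsx, which directs male or female differentiation, among them at 138, 133, 132 and 146 CPM in Zhr1 males and 147, 152, 140.5 and 134 CPM in wild-type males (log2 fold change -0.06 ± 0.07, adjusted p = 0.547).

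Genes for chromatin proteins are given beside the 22.9% of all genes tested that were called. Of 17 heterochromatin genes tested none was higher and 2 were lower. Pof, which encodes the chromosome 4 binding protein, was at 235, 273, 253 and 293 CPM in Zhr1 males and 311, 289, 316 and 326 CPM in wild-type males (log2 fold change -0.24 ± 0.07, adjusted p = 0.0226), lower in 3 of the 4 Zhr1 libraries than in any wild-type library, and its call was lost without Zhr1 replicate 1 or 3 or wild-type replicate 3 or 4. When 1 of the 8 libraries was left out, 0 to 1 of these genes were higher and 0 to 3 lower. Of 18 satellite-binding and centromere genes 2 were higher and 1 lower (2 to 3 higher and 0 to 2 lower with 1 library left out), the condensin subunit barr among them with 39 against 28.9 CPM in Zhr1 against wild-type males (log2 fold change 0.43 ± 0.10, adjusted p = 0.00573). Of 33 piRNA pathway genes, which silence transposons in the germline, 3 were higher and 2 lower. The Tudor protein SoYb was at 2.59, 2.55, 2.44 and 1.65 CPM in Zhr1 males and 5.17, 6.18, 4.12 and 4.97 CPM in wild-type males (log2 fold change -1.13 ± 0.18, adjusted p = 2.2e-04), and the Piwi protein aub had a log2 fold change of -0.56. Of 23 genes embedded in the heterochromatin of chromosomes 2 and 3, 3 were higher and 2 lower (0 to 4 higher and 0 to 1 lower with 1 library left out, and none higher without wild-type replicate 4), with log2 fold changes between -0.31 for Parp1 and 0.32 for Haspin among those called.

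Telomere capping genes were called in both directions, beside 12.6% higher and 10.4% lower over all genes tested. Of 10 tested 3 were higher and 1 lower. HipHop, which protects chromosome ends, was at 6.6, 6.0, 7.03 and 6.33 CPM in Zhr1 males and 2.29, 2.0, 2.72 and 2.55 CPM in wild-type males (log2 fold change 1.43 ± 0.16, adjusted p = 3.9e-06). The ranges did not overlap, and HipHop averaged 2.11 CPM in PofD119 males and 2.06 CPM in PoX2Df1.688 males. verrocchio (ver), a subunit of the terminin complex, was at 4.24, 6.25, 2.44 and 6.54 CPM in Zhr1 males and 2.13, 2.04, 2.42 and 1.75 CPM in wild-type males (log2 fold change 1.21 ± 0.26, adjusted p = 0.00237). The paternal cap gene ms(3)K81 was lower, at 1.77, 1.72, 1.88 and 1.44 CPM in Zhr1 males and 3.08, 2.44, 3.0 and 3.12 CPM in wild-type males (log2 fold change -0.77 ± 0.21, adjusted p = 0.0137).

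Of the 5 genes that the study names as holding or flanking X-linked arrays of the 359-bp satellite, 1 was higher and 1 lower. The phosphodiesterase gene Pde9 was at 109.8, 94.9, 102 and 81.5 CPM in Zhr1 males and 82.4, 70.6, 77.8 and 80.2 CPM in wild-type males (log2 fold change 0.32 ± 0.09, adjusted p = 0.0121). CG12065 was at 51.2, 41.9, 49.3 and 51.7 CPM in Zhr1 males and 57.9, 57, 63 and 57.1 CPM in wild-type males (log2 fold change -0.28 ± 0.08, adjusted p = 0.0183), a call lost without Zhr1 replicate 2 or wild-type replicate 3. CG1840, which flanks the array deleted in PoX2Df1.688, was at 5.48, 4.08, 5.15 and 5.89 CPM in Zhr1 males and 4.7, 4.85, 3.41 and 2.59 CPM in wild-type males (log2 fold change 0.41 ± 0.21, adjusted p = 0.181), with overlapping ranges, and flw, a catalytic subunit of protein phosphatase 1, had a log2 fold change of -0.10.

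Y-linked genes were higher in part. Of 11 tested, most of them giant genes needed for sperm, 6 were higher and 2 lower. kl-2, a dynein heavy chain of the sperm tail, was at 35.4, 32.1, 37.6 and 36.6 CPM in Zhr1 males and 19.8, 17.8, 18.3 and 17.3 CPM in wild-type males (log2 fold change 0.95 ± 0.10, adjusted p = 2.3e-06). ARY, an aldehyde reductase gene, was at 15.9, 17, 14.6 and 18.4 CPM in Zhr1 males and 8.05, 6.7, 7.27 and 7.22 CPM in wild-type males (log2 fold change 1.17 ± 0.14, adjusted p = 5.8e-06). Pp1-Y2, a protein phosphatase 1 subunit, was at 13.7, 11.7, 11.8 and 14.1 CPM in Zhr1 males and 5.09, 7.0, 5.42 and 4.7 CPM in wild-type males (log2 fold change 1.21 ± 0.15, adjusted p = 1.4e-05). These 3 genes did not overlap between the groups and stood lower in the other mutants, with 22.9 CPM in PofD119 males and 21.3 CPM in PoX2Df1.688 males for kl-2.

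Other Y-linked dyneins differed less. kl-5 was at 45.4, 43.7, 45.8 and 55.1 CPM in Zhr1 males and 36, 43.8, 32.1 and 31 CPM in wild-type males (log2 fold change 0.41 ± 0.13, adjusted p = 0.0274), its range reached below wild-type replicate 2, and its call was lost without Zhr1 replicate 4 or wild-type replicate 1, 3 or 4. kl-3 was at 36.4, 38, 35.4 and 38.7 CPM in Zhr1 males and 37.6, 36.8, 32.1 and 31.1 CPM in wild-type males (log2 fold change 0.11 ± 0.11, adjusted p = 0.509) and was not called, nor was the coiled-coil gene CCY at a log2 fold change of 0.21. Pp1-Y1, a second phosphatase subunit, was almost without reads in Zhr1 males, at 0, 0.128, 0 and 0 CPM in Zhr1 males and 1.51, 1.19, 1.2 and 1.61 CPM in wild-type males. With 2 reads in all 4 Zhr1 libraries against 181 in wild type it was 44.4-fold lower (95% interval of the count ratio 12.1 to 369, counting error only). PRY was also lower, with a log2 fold change of -0.70 ± 0.23, a call lost without any 1 of 6 of the 8 libraries, the exceptions being Zhr1 replicate 4 and wild-type replicate 4. When 1 of the 8 libraries was left out, 4 to 5 of these genes were higher and 1 to 2 lower.

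Copies of Suppressor of Stellate, which on Y silence the X-linked Stellate genes in testis, were among the Y sequences read more in Zhr1. Of 48 Stellate and Su(Ste) entries 3 passed the filter on low counts, and 2 of these were called, both higher. Without Zhr1 replicate 1 or 4 or wild-type replicate 1, 3 or 4, 1 was called. Su(Ste):CR42430 was at 5.25, 3.89, 3.15 and 3.52 CPM in Zhr1 males and 1.71, 1.44, 1.37 and 0.974 CPM in wild-type males (log2 fold change 1.52 ± 0.25, adjusted p = 2.1e-04), with no overlap. Its copies are near-identical, so reads that fit several copies were left out of the gene counts. In females, which were taken to lack a Y, Su(Ste):CR42430 held 510, 451, 420 and 415 reads in the 4 Zhr1 libraries, against 0 in each of the 4 wild-type libraries and 0 in each of the PofD119 and PoX2Df1.688 libraries. The sperm dynein kl-2 had 14, 16, 10 and 2 reads in Zhr1 females, against 0, 4, 1 and 1 in wild-type females. Of 113 Y-linked genes in the table, 21 had a read in each of the 4 Zhr1 female libraries, and 16 of these had none in any of the 12 other female libraries. Whether the Y reads of the females bear on the Y-linked levels in males was not tested.

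Testis genes were called in both directions, beside 12.6% of all genes tested that were called higher and 10.4% lower. Of 17 genes of spermatocyte transcription and meiosis 1 was higher and 3 lower. mia, a TATA-binding protein associated factor of the testis, was at 9.08, 10.3, 8.25 and 7.55 CPM in Zhr1 males and 17, 16.1, 14.2 and 14.9 CPM in wild-type males (log2 fold change -0.82 ± 0.12, adjusted p = 7.8e-05). bgcn, which limits germ cell divisions, was at 26.3, 31.5, 26.3 and 33.1 CPM in Zhr1 males and 44, 41.4, 47 and 43.9 CPM in wild-type males (log2 fold change -0.59 ± 0.12, adjusted p = 0.00107), with no overlap. Of 30 late spermatid genes 6 were higher and 2 lower. When 1 of the 8 libraries was left out, 2 to 6 of these genes were higher and 2 to 3 lower. Mst36Fb was at 36.7, 43, 39.7 and 51.6 CPM in Zhr1 males and 22.8, 29.7, 21.8 and 23.3 CPM in wild-type males (log2 fold change 0.81 ± 0.12, adjusted p = 1.3e-04), while its neighbour Mst36Fa was at 11.4, 13.5, 13.6 and 12.4 CPM in Zhr1 males and 21.2, 22.3, 20.4 and 20.9 CPM in wild-type males (log2 fold change -0.74 ± 0.12, adjusted p = 2.1e-04). The 2 genes lie side by side on 2L and moved in opposite directions. Of 9 sperm chromatin genes 2 were higher, the spermatid HMG-box proteins tHMG2 (log2 fold change 0.92 ± 0.13, adjusted p = 7.8e-05) and tHMG1 (log2 fold change 0.32 ± 0.11, adjusted p = 0.0484). The call of tHMG1 was lost when any 1 of 7 of the 8 libraries was left out.

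Seminal fluid genes were higher in part. Of 58 accessory gland genes tested 20 were higher and 1 lower in Zhr1 males (median log2 fold change 0.33, against -0.0039 over all genes tested), and of 10 ejaculatory duct and bulb genes 7 were higher and 1 lower (median log2 fold change 0.62). When 1 of the 8 libraries was left out, 16 to 20 of the accessory gland genes were higher and 1 to 3 lower, and 6 to 7 of the duct and bulb genes were higher and 0 to 1 lower. The whole accessory gland list summed to 8102, 7886, 6879.6 and 7683 CPM in Zhr1 males and 6587, 5716, 5803 and 6061 CPM in wild-type males, and the ejaculatory duct list to 2262, 2228, 2004 and 1935 CPM in Zhr1 males and 1144, 1556, 1126 and 1268 CPM in wild-type males. Neither pair of ranges overlapped. In the other mutants the accessory gland sum averaged 7540.00 CPM in PofD119 males and 6029.5 CPM in PoX2Df1.688 males, and the duct sum 1924 CPM in PofD119 males and 1704 CPM in PoX2Df1.688 males. Acp26Aa, the ovulation-stimulating seminal protein ovulin, was at 342, 342, 295 and 335 CPM in Zhr1 males and 167, 148, 146 and 147 CPM in wild-type males (log2 fold change 1.11 ± 0.09, adjusted p = 8.2e-08). Sfp26Ad was at 55.8, 54.8, 49 and 58.5 CPM in Zhr1 males and 17.6, 16, 17.8 and 18 CPM in wild-type males (log2 fold change 1.65 ± 0.09, adjusted p = 7.2e-10), but was as high in the other mutants, with 60.2 CPM in PofD119 males and 51.9 CPM in PoX2Df1.688 males. EbpII, a protein of the ejaculatory bulb, was at 518, 571, 494 and 576 CPM in Zhr1 males and 204, 369.9, 206 and 220.3 CPM in wild-type males (log2 fold change 1.11 ± 0.22, adjusted p = 0.00113). Dup99B, a duct peptide that changes the behaviour of mated females, was at 362, 346, 339.8 and 288 CPM in Zhr1 males and 194, 185, 181 and 205.4 CPM in wild-type males (log2 fold change 0.80 ± 0.17, adjusted p = 0.00246). Mst57Dc was the lower member among the accessory gland genes, with a log2 fold change of -0.51.

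Yolk and eggshell markers were low and uneven, but the ovary-enriched germline genes as a list were not. Its 18 matched genes summed to 1591, 1690.5, 1664 and 1825 CPM in Zhr1 males and 1808, 1649, 1728 and 1758 CPM in wild-type males. Of 13 ovary-enriched germline genes and 3 yolk genes tested none was called, with yolk sums of 117, 122, 60.5 and 44.1 CPM in Zhr1 males and 6.32, 339, 7.71 and 8.4 CPM in wild-type males. The yolk genes of wild-type replicate 2 stood far above the other 3 wild-type libraries, and without it all 3 were called higher in Zhr1 males. Yp3, a yolk protein, was at 106, 88.1, 52.6 and 38.1 CPM in Zhr1 males and 4.5, 127, 6.26 and 6.12 CPM in wild-type males (log2 fold change 0.99 ± 0.74, adjusted p = 0.372). Of 6 eggshell genes 1 was called: Cp15, a chorion protein, was at 3.12, 4.66, 2.82 and 3.45 CPM in Zhr1 males and 0, 0.0741, 0.0509 and 0.0672 CPM in wild-type males (log2 fold change 6.09 ± 0.40, adjusted p = 5.4e-09), and PofD119 and PoX2Df1.688 males were at the Zhr1 level, with 3.9 CPM in PofD119 males and 2.24 CPM in PoX2Df1.688 males.

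The 12 genes with the largest rise and the 12 with the largest fall, chosen by fold change among genes of at least 5 CPM in the higher group, are given next. These folds are a description, since they chose the genes. sordd2, on X at X:15796908-15799162, was at 7.72, 7.21, 6.81 and 8.12 CPM in Zhr1 males and 0, 0, 0 and 0 CPM in wild-type males, at least 80.3-fold higher in Zhr1 males than 3 reads in a wild-type library would give. It had 0 CPM in PofD119 males and 15.8 CPM in PoX2Df1.688 males. CR44079 on 2L was at 66.1, 63.1, 62.3 and 58.6 CPM in Zhr1 males and 0.224, 0, 0.203 and 0 CPM in wild-type males (log2 fold change 8.95 ± 0.33, adjusted p = 2.0e-12), and it was low in the other mutants, with 0.733 CPM in PofD119 males and 0.141 CPM in PoX2Df1.688 males. Other genes higher in Zhr1 were CG13135, at 19.7, 13.8, 13.8 and 14.2 CPM in Zhr1 males and 0.671, 0.259, 0.509 and 0.403 CPM in wild-type males, and CG13675, at 14.7, 16.4, 13.8 and 19.1 CPM in Zhr1 males and 0.615, 0.0741, 0.483 and 0.538 CPM in wild-type males. Genes with known roles were Amy-d, a digestive amylase, SPH93, a serine protease homologue, TwdlD, a Tweedle protein of the cuticle, and the cytochrome P450 Cyp28a5. TwdlD was at 4.89, 4.15, 6.2 and 7.76 CPM in Zhr1 males and 0.112, 0, 0 and 0 CPM in wild-type males (log2 fold change 7.32 ± 0.59, adjusted p = 6.2e-08). Cyp28a5 was at 53.2, 49.3, 48.4 and 38.2 CPM in Zhr1 males and 1.62, 0.741, 0.915 and 0.806 CPM in wild-type males (log2 fold change 5.50 ± 0.18, adjusted p = 3.5e-13), with 33.3 CPM in PofD119 males and 44.1 CPM in PoX2Df1.688 males, so that wild type was again the low group.

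**Figure D3:**
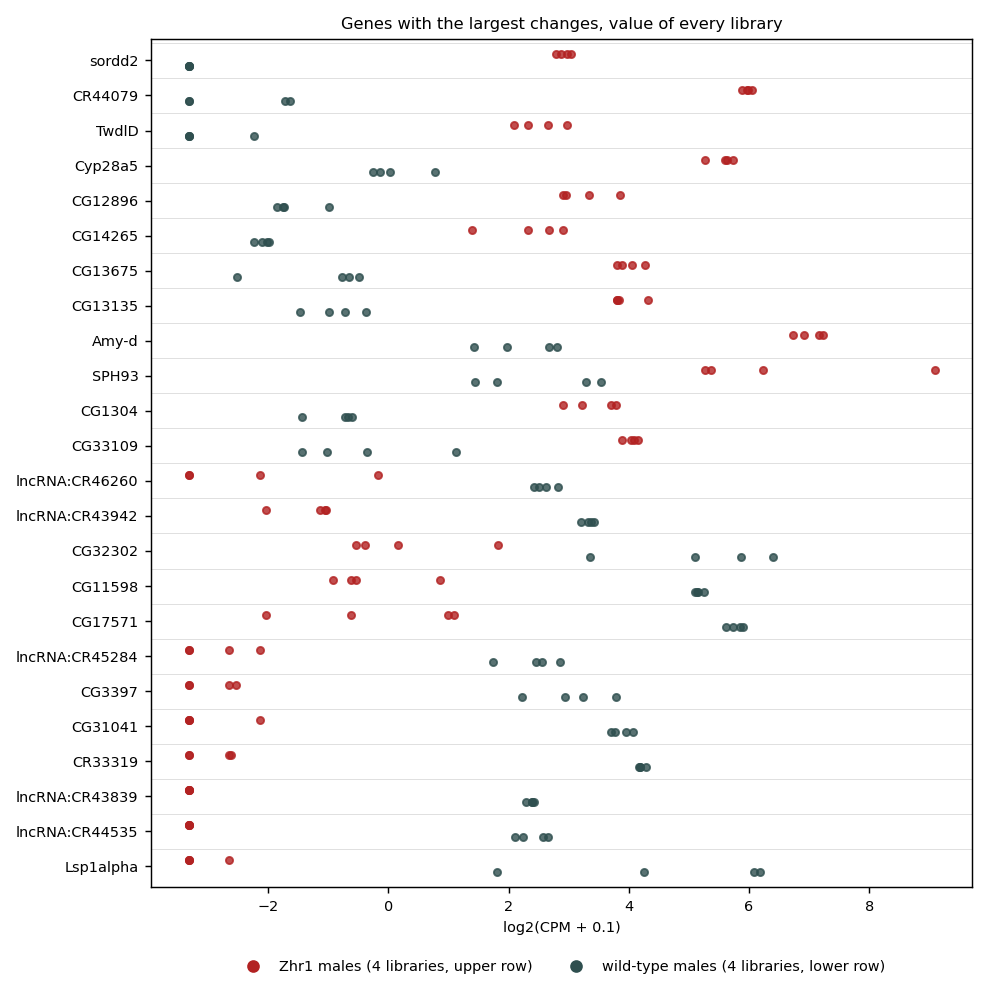
Level of the 24 genes with the largest changes as log2(CPM + 0.1) (horizontal axis), ordered by fold change, with the 4 Zhr1 libraries in the upper row and the 4 wild-type libraries in the lower row of each gene. A library without a read sits at the left edge, and no gene has overlapping groups because the choice of genes required it.

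On the lower side several genes lost nearly all reads. CG31041 on 3R was at 0, 0.128, 0 and 0 CPM in Zhr1 males and 12.9, 13.6, 15.3 and 16.7 CPM in wild-type males, 472-fold lower (interval 130 to 3900). CR33319 on 2L was at 0.0589, 0.0638, 0 and 0 CPM in Zhr1 males and 19.4, 17.9, 18.2 and 18.1 CPM in wild-type males, 596-fold lower (interval 165 to 4928). Both intervals cover counting error only. CG3397 was at 0.0589, 0, 0 and 0.0719 CPM in Zhr1 males and 4.56, 13.7, 9.38 and 7.56 CPM in wild-type males, and it was 0 in PofD119 males and 15.8 CPM in PoX2Df1.688 males, a presence or absence that varied between stocks. The noncoding RNAs lncRNA:CR44535 and lncRNA:CR43839 had no read in Zhr1 males and were at least 27.8-fold and 27.1-fold lower. Lower genes with known roles were the serine protease gene CG17571, at 1.89, 2.04, 0.553 and 0.144 CPM in Zhr1 males and 53.4, 57.7, 59.5 and 49.2 CPM in wild-type males (log2 fold change -5.54 ± 0.41, adjusted p = 2.2e-08), and Lsp1alpha, an X-linked larval serum protein gene. Lsp1alpha was at 0.0589, 0, 0 and 0 CPM in Zhr1 males and 3.38, 68, 72.1 and 18.9 CPM in wild-type males, 2624-fold lower (interval 471 to 103673), and its wild-type libraries themselves spread widely.

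In females, 18 of the 24 genes could be tested and 16 were called in the same direction, where 41.1% of 11938 genes were called in Zhr1 against wild-type females, 20.3% higher and 20.8% lower. CG13675 was not called in females, with a female log2 fold change of -0.69 (adjusted p = 0.153).

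**Figure D4:**
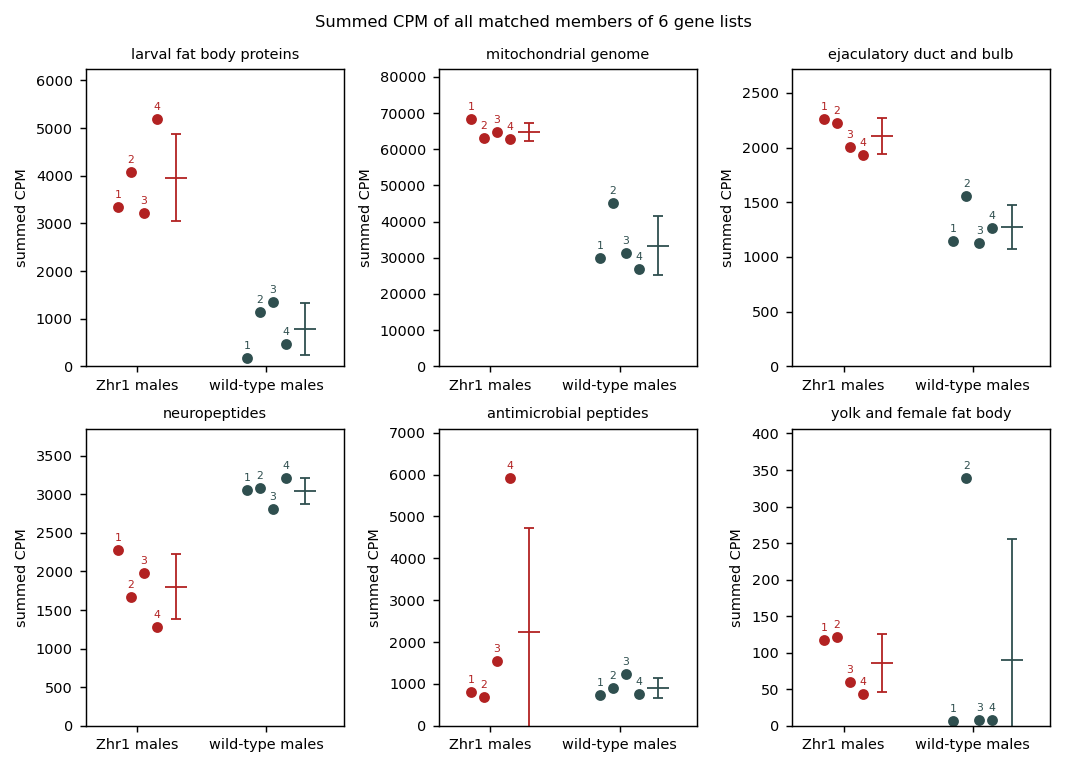
Summed CPM (vertical axes, linear and starting at 0) of all members of 6 gene lists, with Zhr1 males left and wild-type males right. Points are single libraries with their replicate number, and the bar beside them gives mean and SD (n = 4). Zhr1 replicate 4 stands apart in antimicrobial peptides at 5910.2 CPM and wild-type replicate 2 in yolk genes at 339 CPM.

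Digestive genes differed in both directions. Of 31 genes for midgut carbohydrases and lysozymes 17 were higher and 6 lower in Zhr1 males (median log2 fold change 0.71), and the list summed to 4479, 4132, 3921 and 3099 CPM in Zhr1 males and 2204, 3168, 2728 and 2757 CPM in wild-type males. Amy-d was at 119.8, 106, 149 and 143 CPM in Zhr1 males and 2.57, 6.85, 6.26 and 3.83 CPM in wild-type males (log2 fold change 4.74 ± 0.30, adjusted p = 4.0e-09). Its duplicate Amy-p is near-identical, so the split of reads between the 2 copies is uncertain. LysX, a lysozyme gene, was at 5.36, 9.32, 12.9 and 22.6 CPM in Zhr1 males and 0.391, 1.56, 1.14 and 0.538 CPM in wild-type males (log2 fold change 3.79 ± 0.57, adjusted p = 9.2e-05). LysE, of the same cluster on 3L, was at 4.48, 5.81, 4.37 and 4.89 CPM in Zhr1 males and 77.2, 51.8, 57.9 and 67.9 CPM in wild-type males (log2 fold change -3.71 ± 0.24, adjusted p = 3.8e-09). Mal-B1, a maltase, was at 32, 22.6, 19.9 and 13.5 CPM in Zhr1 males and 73, 99.2, 98.5 and 95.8 CPM in wild-type males (log2 fold change -2.05 ± 0.19, adjusted p = 4.2e-07), and it was at 3.80 CPM on average in PofD119 males. Lysozyme genes of the cluster are close paralogues, and their separate values are uncertain on that account.

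Of 28 digestive proteases 4 were higher and 11 lower (median log2 fold change 0.10). yip7, a serine protease of the midgut, was at 178, 188, 188 and 172 CPM in Zhr1 males and 785, 794, 498 and 659 CPM in wild-type males (log2 fold change -1.91 ± 0.15, adjusted p = 3.6e-08). betaTry, a midgut trypsin, was at 1069.9, 784, 929.7 and 473 CPM in Zhr1 males and 174, 223, 122 and 186 CPM in wild-type males (log2 fold change 2.21 ± 0.21, adjusted p = 5.1e-07). Jon65Ai was lower, with 3.1 against 22.2 CPM in Zhr1 against wild-type males, and its neighbour Jon65Aii was higher, with 20 against 2.53 CPM. The split depended on 2 libraries: 7 were higher and 9 lower without Zhr1 replicate 4, 8 were higher and 9 lower without wild-type replicate 2, and 8 were higher and 7 lower without both.

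Genes of detoxification differed in both directions, beside 12.6% higher and 10.4% lower over all genes tested. Of 80 cytochrome P450 genes, which oxidise foreign compounds and hormones, 23 were higher and 15 lower (median log2 fold change 0.11). Cyp6a2, linked to insecticide resistance, was at 13.1, 8.04, 14 and 11.9 CPM in Zhr1 males and 74.8, 76.7, 81.9 and 80.4 CPM in wild-type males (log2 fold change -2.74 ± 0.16, adjusted p = 1.1e-09). Cyp4p2 was at 7.84, 7.21, 9.57 and 7.76 CPM in Zhr1 males and 0.867, 0.333, 0.737 and 0.974 CPM in wild-type males (log2 fold change 3.45 ± 0.28, adjusted p = 5.8e-08), and Cyp6a18 at 2.83, 1.66, 1.66 and 2.73 CPM in Zhr1 males and 21.4, 30, 26.8 and 26.5 CPM in wild-type males (log2 fold change -3.56 ± 0.18, adjusted p = 2.0e-10). Cyp12d1-d, a duplicate whose presence varies between stocks, had 0 reads in Zhr1, PofD119 and PoX2Df1.688 males, against 1.71, 4.70, 1.78 and 2.18 CPM in wild-type males, at least 13.8-fold lower. Cyp18a1, which inactivates ecdysone, had a log2 fold change of -0.75.

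Of 64 glutathione S-transferases and UDP-glycosyltransferases 20 were higher and 4 lower (median log2 fold change 0.21). Ugt37A3 was at 19.2, 20.6, 13.1 and 8.91 CPM in Zhr1 males and 1.23, 1.85, 1.2 and 1.88 CPM in wild-type males (log2 fold change 3.34 ± 0.27, adjusted p = 5.9e-08), and Ugt35C1 at 56.7, 54.4, 55 and 37.2 CPM in Zhr1 males and 10.2, 11, 10.9 and 8.5 CPM in wild-type males (log2 fold change 2.32 ± 0.16, adjusted p = 9.2e-09). GstE1 was lower, at 6.84, 6.38, 7.03 and 7.76 CPM in Zhr1 males and 16.7, 18.4, 17.4 and 16.1 CPM in wild-type males (log2 fold change -1.29 ± 0.10, adjusted p = 5.0e-08), while PoX2Df1.688 males averaged 30.3 CPM. No overlap occurred for these 3 genes. Of 17 genes of metal handling 5 were higher and 2 lower. MtnA, the main copper-inducible metallothionein, was at 131, 135, 119.99 and 207 CPM in Zhr1 males and 392, 324, 446 and 332 CPM in wild-type males (log2 fold change -1.33 ± 0.18, adjusted p = 3.0e-05), while MtnC (log2 fold change 1.72 ± 0.27, adjusted p = 1.7e-04) and MtnE (log2 fold change 2.57 ± 0.32, adjusted p = 1.2e-05) were higher.

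Fat body and metabolic genes held more higher than lower calls. Larval serum protein genes are transcribed in the larval fat body, some cells of which persist in the newly hatched adult. Of 7 genes of that list 5 were higher and 1, Lsp1alpha, was lower (median log2 fold change 2.30), and the list summed to 3345, 4078, 3225 and 5193 CPM in Zhr1 males and 177, 1149.5, 1344 and 475 CPM in wild-type males, with 1142 CPM in PofD119 males and 3505 CPM in PoX2Df1.688 males on average. Lsp1gamma was at 984, 1145, 1019 and 1466 CPM in Zhr1 males and 51.5, 182, 203 and 89.7 CPM in wild-type males (log2 fold change 3.13 ± 0.43, adjusted p = 4.4e-05). Lsp1beta was at 667, 726, 638 and 1009 CPM in Zhr1 males and 31.5, 204, 268 and 115 CPM in wild-type males (log2 fold change 2.30 ± 0.53, adjusted p = 0.00401). Fbp1, the larval serum protein receptor, was at 1468, 1942, 1360.1 and 2397 CPM in Zhr1 males and 37.2, 583, 676 and 173 CPM in wild-type males (log2 fold change 2.29 ± 0.74, adjusted p = 0.0326). The wild-type libraries spread widely among themselves in the sum, and each library mixed flies of several ages within the first day. Whether the ages of the flies differed between the stocks within those collection times was not tested.

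Of 28 lipid genes 10 were higher and 1 lower (median log2 fold change 0.20). Acox57D-d, a peroxisomal acyl-CoA oxidase, was at 41.5, 33.6, 32.4 and 34.6 CPM in Zhr1 males and 10.3, 19.4, 11.9 and 11.6 CPM in wild-type males (log2 fold change 1.42 ± 0.16, adjusted p = 4.2e-06), and Apoltp, a lipid transfer particle protein of the haemolymph, was at 406, 357, 419 and 577 CPM in Zhr1 males and 218, 329, 292 and 271 CPM in wild-type males (log2 fold change 0.66 ± 0.15, adjusted p = 0.00279). Of 11 genes of purine breakdown and Malpighian tubule 6 were higher and none lower (median log2 fold change 0.48). Uro, the urate oxidase of the tubules, was at 162, 143, 162 and 171 CPM in Zhr1 males and 30.8, 51.3, 50.1 and 34.1 CPM in wild-type males (log2 fold change 1.94 ± 0.18, adjusted p = 4.4e-07), with 50.9 CPM in PofD119 males and 33.2 CPM in PoX2Df1.688 males, so the high level was found in Zhr1 among the 4 male genotypes. In females its log2 fold change was 0.25 (adjusted p = 0.474). Of 22 eye pigment genes 8 were higher and 1 lower. brown (bw), a pigment precursor transporter, was at 8.9, 8.42, 8.69 and 9.63 CPM in Zhr1 males and 3.58, 4.37, 5.21 and 4.13 CPM in wild-type males (log2 fold change 1.04 ± 0.15, adjusted p = 6.5e-05), and vermilion (v), tryptophan oxygenase, was at 7.96, 7.34, 10 and 13.8 CPM in Zhr1 males and 3.02, 6.85, 5.52 and 4.87 CPM in wild-type males (log2 fold change 0.95 ± 0.27, adjusted p = 0.0145), a call lost without Zhr1 replicate 4 (adjusted p = 0.0573).

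In the mitochondrial genome all 15 tested transcripts were called higher in Zhr1 males (median log2 fold change 0.88), and 13 to 15 when 1 of the 8 libraries was left out, with sums of 68418, 63175, 64868 and 62895 CPM in Zhr1 males and 30039, 45279, 31262 and 26830.00 CPM in wild-type males. The ranges did not overlap, but wild-type replicate 2 stood above the other wild-type libraries. The other mutants also exceeded wild type, with 70484 CPM in PofD119 males and 59531 CPM in PoX2Df1.688 males. The small ribosomal RNA, mt:srRNA, was at 19373, 19529, 19411 and 22224 CPM in Zhr1 males and 7226, 12209, 7869 and 6485 CPM in wild-type males (log2 fold change 1.25 ± 0.20, adjusted p = 1.6e-04), and its level also depends on the removal of ribosomal RNA during preparation. mt:ATPase6, a subunit of ATP synthase, was at 997, 761, 968 and 603 CPM in Zhr1 males and 239.7, 612, 337 and 279 CPM in wild-type males (log2 fold change 1.18 ± 0.24, adjusted p = 0.00131), and mt:ND6 had a log2 fold change of 1.39. For both, Zhr1 replicate 4 was below wild-type replicate 2. The list held 37 entries, of which 21 had no read in the 8 libraries.

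Nuclear genes of the respiratory chain and of the ribosome were called in both directions, beside 12.6% higher and 10.4% lower over all genes tested. Of 90 respiratory chain genes 3 were higher and 7 lower, and of 87 ribosomal protein genes 4 were higher and 11 lower. These counts rested on single libraries. Of the respiratory genes 11 were higher and 4 lower without Zhr1 replicate 4, 9 were higher and 7 lower without wild-type replicate 2, and 17 were higher and 5 lower without both. Of the ribosomal protein genes 5 were higher and 4 lower without Zhr1 replicate 4, 3 were higher and 20 lower without wild-type replicate 1, and 17 were higher and 7 lower without Zhr1 replicate 4 and wild-type replicate 2. ATPsyngamma, of the ATP synthase, was at 1068, 934, 989 and 644 CPM in Zhr1 males and 991, 1291, 1169 and 1322 CPM in wild-type males (log2 fold change -0.39 ± 0.12, adjusted p = 0.0297), a call lost without Zhr1 replicate 2 or 4 or wild-type replicate 2, 3 or 4. Among ribosomal proteins, RpS14b was at 199, 219, 209 and 194 CPM in Zhr1 males and 107, 137, 128 and 126 CPM in wild-type males (log2 fold change 0.72 ± 0.07, adjusted p = 5.5e-07), while its tandem duplicate RpS14a was at 126, 124, 119 and 121 CPM in Zhr1 males and 129, 203, 159.9 and 162 CPM in wild-type males (log2 fold change -0.42 ± 0.09, adjusted p = 0.00318). The 2 genes are near-identical, so the division of reads between them is uncertain.

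Immune genes differed with 1 library far above the others. Of 30 antimicrobial peptide and Bomanin genes 11 were higher and 1 lower (median log2 fold change 1.22), and the list summed to 816, 687, 1556 and 5910.2 CPM in Zhr1 males and 736, 895, 1233 and 755 CPM in wild-type males. Without Zhr1 replicate 4, 6 were higher and 2 lower, and without wild-type replicate 4, 7 were higher and 1 lower. BomS1, a short immune-induced Bomanin peptide, was at 35.6, 23.4, 149 and 666 CPM in Zhr1 males and 27, 50.9, 39.3 and 23.2 CPM in wild-type males (log2 fold change 2.64 ± 0.75, adjusted p = 0.0166), and Mtk, the antifungal peptide metchnikowin, was at 2.06, 1.47, 6.2 and 77.2 CPM in Zhr1 males and 3.02, 1.56, 4.27 and 1.48 CPM in wild-type males (log2 fold change 3.02 ± 0.95, adjusted p = 0.0285). Without Zhr1 replicate 4 the adjusted p was 0.211 for BomS1 and 0.783 for Mtk. Both calls were also lost without wild-type replicate 4, and that of Mtk without wild-type replicate 1 or 2. CecA1, a cecropin, went the other way in all libraries, at 1.59, 1.72, 1.44 and 1.51 CPM in Zhr1 males and 8.78, 7.7, 7.71 and 7.76 CPM in wild-type males (log2 fold change -2.35 ± 0.19, adjusted p = 6.6e-08). Of 35 recognition and signalling genes 9 were higher and 2 lower, and 6 were higher and 1 lower without Zhr1 replicate 4. PGRP-SA, the receptor for Gram-positive peptidoglycan, was at 4.83, 8.36, 6.81 and 7.33 CPM in Zhr1 males and 1.12, 3.93, 2.36 and 2.05 CPM in wild-type males (log2 fold change 1.54 ± 0.28, adjusted p = 6.1e-04). PGRP-SC1a, a peptidoglycan-degrading amidase, was at 1.18, 0.893, 0.553 and 0.431 CPM in Zhr1 males and 8.89, 4.18, 4.45 and 3.46 CPM in wild-type males (log2 fold change -2.76 ± 0.44, adjusted p = 1.9e-04). Of 18 antiviral and JAK/STAT genes 1 was higher and 3 lower (1 higher and 1 to 3 lower with 1 library left out), pastrel (pst) among them at 152, 148, 164 and 173 CPM in Zhr1 males and 226, 339, 308 and 242 CPM in wild-type males (log2 fold change -0.81 ± 0.12, adjusted p = 6.8e-05).

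Of 26 heat shock genes 3 were higher and 2 lower (3 higher and 2 to 4 lower with 1 library left out). Over all genes tested 12.6% were higher and 10.4% lower, so these stress genes were called about as often as others. Of 7 Turandot genes none was called. The noncoding RNA Hsromega, which organises nuclear stress bodies, was at 2776, 2533, 2907 and 3129 CPM in Zhr1 males and 2108, 1798, 1801 and 1585 CPM in wild-type males (log2 fold change 0.64 ± 0.11, adjusted p = 3.4e-04). Of 12 haemocyte genes 4 were higher and 1 lower. Hml, the marker hemolectin, was at 74.5, 69.6, 58.9 and 51.3 CPM in Zhr1 males and 89.9, 159, 105 and 90.6 CPM in wild-type males (log2 fold change -0.80 ± 0.20, adjusted p = 0.00748), while the phagocytic receptor eater had a log2 fold change of 0.76 and the prophenoloxidase PPO2 one of 1.02. When 1 of the 8 libraries was left out, 1 to 4 of these genes were higher and 1 lower.

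Cuticle genes went both ways in a tissue still maturing at this age, beside 12.6% higher and 10.4% lower over all genes tested. Of 73 structural cuticle proteins 14 were higher and 18 lower, and 11 of each without wild-type replicate 4. Cpr72Ec was at 15.5, 12.3, 23.5 and 11.7 CPM in Zhr1 males and 1.45, 2.56, 2.85 and 1.78 CPM in wild-type males (log2 fold change 2.87 ± 0.29, adjusted p = 1.4e-06). TwdlP had no read in Zhr1 males, against 1.15, 0.630, 0.966 and 0.504 CPM in wild-type males, at least 4.33-fold lower. Of 24 tanning and melanin genes 3 were higher and 4 lower (1 to 5 higher and 3 to 5 lower with 1 library left out), with yellow-b, a yellow family member, at 16.5, 14.9, 17.4 and 16.1 CPM in Zhr1 males and 23.7, 27.1, 24 and 27.4 CPM in wild-type males (log2 fold change -0.65 ± 0.11, adjusted p = 2.5e-04).

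Genes of the nervous system differed in single members, beside 12.6% higher and 10.4% lower over all genes tested. Of 19 neuronal and 8 glial genes none was called. Of 67 odorant, gustatory and ionotropic receptors 11 were higher and 6 lower, of 37 odorant-binding proteins 4 were higher and 4 lower (2 to 6 higher and 2 to 5 lower with 1 library left out), and of 35 phototransduction genes 3 were higher and 4 lower (1 to 3 higher and 2 to 9 lower with 1 library left out). Without wild-type replicate 3, 6 receptors were higher and 6 lower, and without wild-type replicate 2, 3 phototransduction genes were higher and 9 lower. Ir68b, an ionotropic receptor, was at 5.19, 5.49, 4.93 and 4.31 CPM in Zhr1 males and 0.112, 0, 0.203 and 0.269 CPM in wild-type males (log2 fold change 5.0 ± 0.45, adjusted p = 2.3e-07). Gr33a, a receptor for aversive compounds and pheromones, was at 6.25, 3.64, 4.04 and 10.1 CPM in Zhr1 males and 0.643, 0.667, 0.915 and 0.437 CPM in wild-type males (log2 fold change 3.14 ± 0.39, adjusted p = 1.2e-05), and Or59b, an odorant receptor, at 1.53, 1.47, 1.49 and 2.88 CPM in Zhr1 males and 8.22, 7.7, 7.22 and 5.68 CPM in wild-type males (log2 fold change -1.99 ± 0.21, adjusted p = 1.5e-06). None of the 3 receptors overlapped between the groups. Gr33a was near 0 in the other mutants, with 0.0204 CPM in PofD119 males and 0.0773 CPM in PoX2Df1.688 males.

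Of 32 neuropeptide genes 4 were higher and 4 lower, beside 12.6% higher and 10.4% lower over all genes tested. Without wild-type replicate 2, 4 were higher and 8 lower, and without wild-type replicate 4, 2 were higher and 3 lower. Dsk, the gene for the satiety peptides drosulfakinins, was at 1.65, 0.893, 1.05 and 0.719 CPM in Zhr1 males and 9.76, 10.3, 8.34 and 8.13 CPM in wild-type males (log2 fold change -3.06 ± 0.21, adjusted p = 1.1e-08), and it was low in the other mutants too, with 1.15 CPM in PofD119 males and 1.51 CPM in PoX2Df1.688 males. Nplp3 was at 1897, 1326, 1646 and 948 CPM in Zhr1 males and 2706, 2775, 2481 and 2879 CPM in wild-type males (log2 fold change -0.90 ± 0.19, adjusted p = 0.00186). Of 14 clock genes 1 was higher and 2 lower, near the shares over all genes tested. The clock repressor vri was at 97.9, 83.7, 85 and 83.7 CPM in Zhr1 males and 136, 146, 149.8 and 155 CPM in wild-type males (log2 fold change -0.74 ± 0.07, adjusted p = 3.9e-07), per, a second repressor, was at 30.1, 28.5, 28.8 and 27.5 CPM in Zhr1 males and 35.1, 34.8, 36.9 and 37.4 CPM in wild-type males (log2 fold change -0.33 ± 0.07, adjusted p = 0.00313), and the activator Clk was at 70.9, 77, 78.8 and 86 CPM in Zhr1 males and 61.3, 59.2, 53.9 and 54.9 CPM in wild-type males (log2 fold change 0.45 ± 0.07, adjusted p = 9.1e-05). For vri, per and Clk the groups did not overlap. Within the insulin pathway, of 16 genes 2 were higher and 1 lower (1 to 3 higher and 1 lower with 1 library left out), with the fat body peptide Ilp6 at 17.3, 16.5, 21.1 and 24.9 CPM in Zhr1 males and 10.4, 10.2, 11.1 and 8.3 CPM in wild-type males (log2 fold change 0.99 ± 0.17, adjusted p = 4.2e-04) and the translational inhibitor Thor at 104, 88.6, 94.9 and 173 CPM in Zhr1 males and 247, 152, 219 and 195 CPM in wild-type males (log2 fold change -0.82 ± 0.17, adjusted p = 0.00222).

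Of 34 sarcomere genes 4 were higher and 3 lower, near the 12.6% higher and 10.4% lower over all genes tested. When 1 of the 8 libraries was left out, 2 to 6 of these genes were higher and 3 to 4 lower. Mlp60A, a muscle LIM protein, was at 371, 376, 400.3 and 295 CPM in Zhr1 males and 71.8, 83.4, 75.5 and 81.1 CPM in wild-type males (log2 fold change 2.21 ± 0.09, adjusted p = 8.3e-12), and the other mutants shared its level, with 554 CPM in PofD119 males and 364 CPM in PoX2Df1.688 males. thin (tn), a TRIM protein that keeps muscle fibres intact, was at 714, 643, 704 and 603 CPM in Zhr1 males and 1037, 1044, 1159.9 and 1212 CPM in wild-type males (log2 fold change -0.74 ± 0.09, adjusted p = 1.7e-05), and tropomodulin (tmod), which caps actin filaments, was at 720.5, 584, 668 and 606 CPM in Zhr1 males and 917, 889, 942 and 904 CPM in wild-type males (log2 fold change -0.50 ± 0.09, adjusted p = 6.3e-04). All 3 were without overlap.

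**Figure D5:**
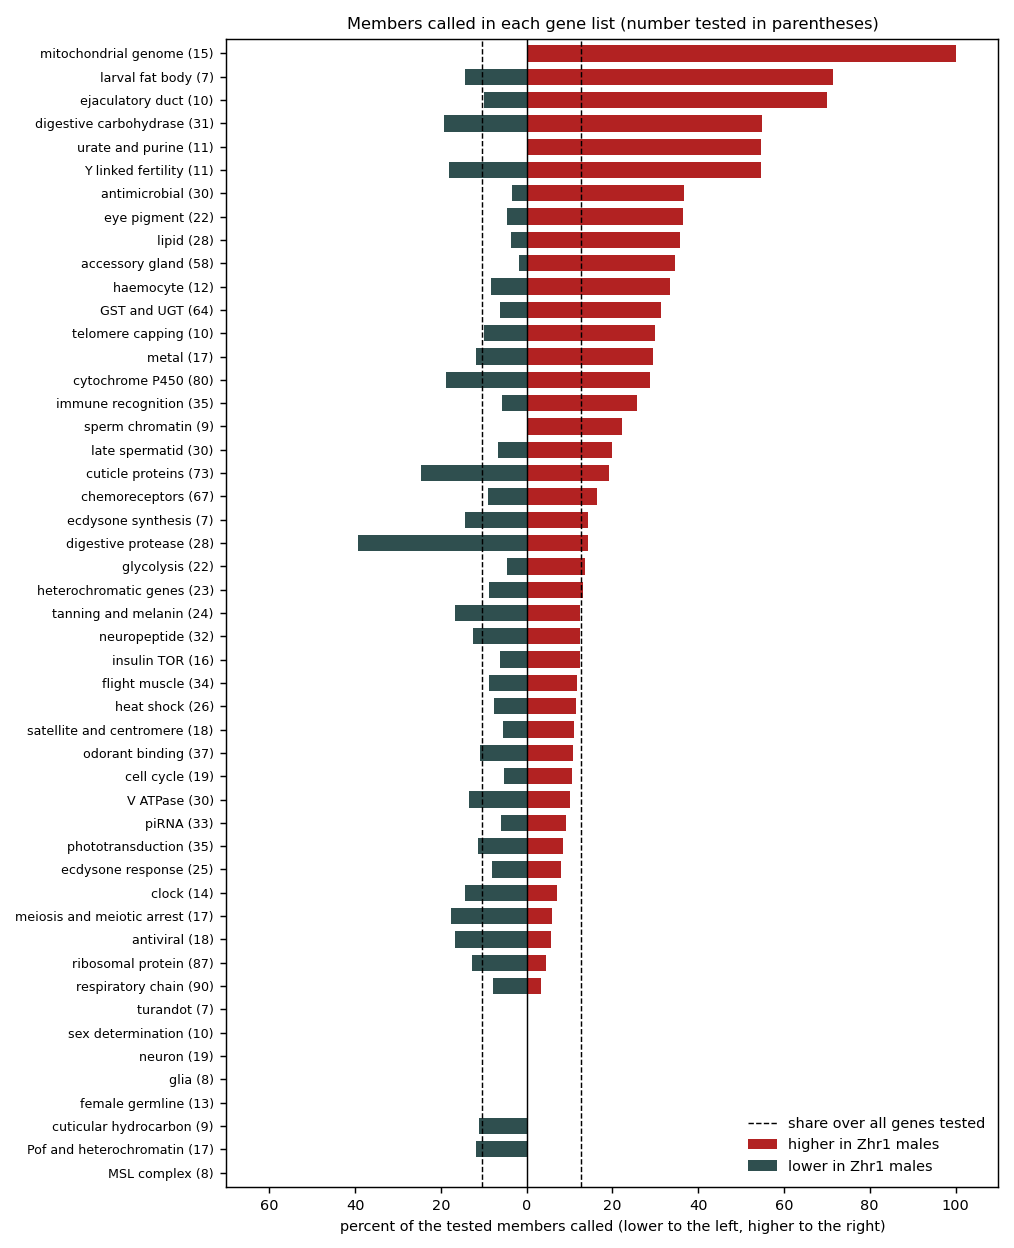
Share of tested members called in each of 49 gene lists with at least 7 tested members, in percent (horizontal axis), higher in Zhr1 males to the right and lower to the left, with the number tested in parentheses. Dashed lines give the shares over all genes, 12.6% higher and 10.4% lower. The mitochondrial genome list reaches 15 of 15 higher, while the MSL complex and sex determination lists hold no call.

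Against the PofD119 and PoX2Df1.688 males as 1 contrast, 3044 of 13503 genes (22.5%) differed in Zhr1 males, 11.7% higher and 10.9% lower. This comparison shares the Zhr1 libraries with that against wild type. Between males and females, the Zhr1 effect differed in 3223 of 13948 genes (23.1%, with 9.46% positive and 13.6% negative), with the Y reads of Zhr1 females as a known difference of that stock.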

How the data were processed

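Per the file headers and the study's methods, the authors trimmed paired reads with Trimmomatic 0.36, removed ribosomal reads with SortMeRNA, aligned with STAR 2.5.4b and made the deposited counts with featureCounts 1.6.3, without use of strand. In the gene table a count is a pair whose mates both aligned, and multi-mapping pairs were left out. Repeat counts, summed by RepeatMasker name, and counts of 1.688 satellite blocks include every alignment of a multi-mapping read, the blocks as single reads. Antisense and overlapping genes cannot be told apart in such counts.

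Counts of the 16 male libraries, each of 10 pooled flies, were fitted with edgeR 4.0.16 (glmQLFit, glmQLFTest, R 4.3.3) with 1 coefficient per genotype, TMM factors of the gene table and Benjamini–Hochberg adjustment over all features of a table. Features were kept by the edgeR function filterByExpr at its default settings. It requires, in at least 4 libraries, a CPM equal to 10 counts at the median library size, along with a minimum total count. The count needed therefore differed with library depth. Repeats and blocks used the gene totals and factors. The study used DESeq2, which was an alternative here (DESeq2 1.42.0), together with RLE scaling, other filters, the 8 libraries alone, a replicate block, own table totals and each library left out. Sums over blocks and repeat names were compared as log2 CPM with exact two-sided permutation tests (scipy 1.17.1), and unit identities used edlib 1.3.9.post1. Sums over gene lists are given without a test. Figures were drawn with matplotlib 3.10.9. The fit was tested on simulated data.

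Named genes were the 12 largest changes in each direction among called genes with at least 5 CPM in the higher group and no overlap, up to 3 called members in each direction of each of 54 gene lists, the 8 largest repeat names and 5 largest blocks in each direction, the 10 most proximal X genes, and whole lists of the MSL complex, sex determination, Y-linked and satellite host genes. Acp26Aa, Lsp1beta, Fbp1, HETA, TART-A, the marker genes, the satellite names and the Y-linked reads in females were added after their values were seen. Members, lists and tests were chosen with earlier results of these data known. A further 23 repeat names of satellites, ribosomal spacers and structural RNAs were left out of the transposon test. Of 17490 gene entries 17288 were matched to gene names in the reference tables. Replicates are separate pools of flies.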

Additional observations from a re-analysis of the deposited data

Results flagged for a closer look

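Reads on Y-linked Su(Ste) entries came to 2296 in the 4 Zhr1 female libraries, against 1 in the wild-type, 1 in the PofD119 and 1 in the PoX2Df1.688 female libraries, a signal outside the male comparison that stood above all other stocks.

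In 16 of 86 groups of 4 libraries 1 library stood apart from the other 3 by Dixon's criterion. Its chance rate of about 1 in 20 is for normally distributed values. CPM values need not be so distributed, and the groups share the same libraries, so no excess over chance is read from the count. That rate also does not hold where the other libraries had few or no reads, as for CG31041, Lsp1alpha, TwdlD and lncRNA:CR46260. Zhr1 replicate 4 was apart in the antimicrobial sum (5910.2 CPM), SPH93 (546 CPM), CG32302 (3.45 CPM), lncRNA:CR43942 (0.144 CPM) and lncRNA:CR46260 (0.791 CPM). Wild-type replicate 2 was apart in the yolk sum (339 CPM), the eggshell sum (10.2 CPM) and CG12896 (0.407 CPM). Zhr1 replicate 2 was apart in the eggshell sum (36.4 CPM), CG31041 (0.128 CPM) and CG11598 (1.72 CPM), and Zhr1 replicate 1 in CG13135 (19.7 CPM) and Lsp1alpha (0.0589 CPM). Wild-type replicate 1 was apart in the sum of 2L blocks (4.89 CPM) and TwdlD (0.112 CPM), and wild-type replicate 4 in CG1304 (0.269 CPM).

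For 9 of the 24 genes with the largest changes the fitted Zhr1 effect in males stood apart from that in females. Their male fold change chose these genes and enters the difference, so the differences are a description, with no test. The male minus female difference in log2 fold change was 2.65 for CG33109, 5.80 for CG13675, 1.87 for CG14265, 1.65 for CG12896 and -3.86 for lncRNA:CR46260. TwdlD (7.8), lncRNA:CR44535 (-9.80), lncRNA:CR43839 (-9.84) and lncRNA:CR43942 (-4.93) had too few reads to be tested in females alone, so no sex difference can be read from their values.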

How the results depend on the processing

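The naming rule gave 244 called genes, repeat names and blocks. Acp26Aa, Lsp1beta, Fbp1, HETA and TART-A were added outside it and are not among them. Of the 244, 183 were called under every alternative, 61 lost the call under at least 1, and none reversed. Without Zhr1 replicate 4 there were 31 such losses and without wild-type replicate 2 there were 19. The number of called genes (3097) was 3095 with RLE scaling, 3428 with DESeq2, 2604 with the 8 libraries alone and 930 with an absolute log2 fold change of at least 1, and 2354 to 3427 when each library was left out. The same ranges were 201 to 221 for repeat names (229), 225 to 242 for blocks (228) and 3 to 6 for the most proximal window of X (5). In females (4903) the range was 3857 to 4784 with each of the 8 Zhr1 and wild-type female libraries left out. Against the other mutants (3044) it was 2437 to 2688, with only the 4 Zhr1 male libraries left out in turn. For the interaction (3223) it was 2734 to 3244, with only the 8 Zhr1 and wild-type male libraries left out in turn. DESeq2 called 242 repeat names and 299 blocks. Replicate numbers did not pair the samples: the correlations of same-numbered libraries were -0.03, 0.11, 0.004 and -0.12, and the fit with the replicate block called 3048 genes, 227 repeat names and 224 blocks. With each library left out, the differences of mean log2 CPM ran between 0.19 and 0.32 for X blocks, 0.80 and 1.00 for 3L blocks and 0.32 and 0.40 for all transposon names, all at an exact permutation p of 0.0571, the smallest that 3 against 4 libraries allow. Blocks and repeat names with few reads could not be tested, and the lower depth of Zhr1 males limits what can be said of features at 0 there.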

Other observations

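Several gene groups outside the main account are given beside the 22.9% of all genes tested that were called. Of 22 genes of glycolysis and sugar storage 3 were higher and 1 lower, and 10 were higher and 1 lower without Zhr1 replicate 4 and wild-type replicate 2. Treh, the trehalase, was at 378, 359.7, 376 and 340.1 CPM in Zhr1 males and 239, 324, 276 and 290.1 CPM in wild-type males (log2 fold change 0.36 ± 0.08, adjusted p = 0.00222), and the trehalose synthase Tps1 was at 596, 671, 629 and 612 CPM in Zhr1 males and 262, 571, 416 and 376 CPM in wild-type males (log2 fold change 0.63 ± 0.16, adjusted p = 0.00938). Of 30 vacuolar proton pump genes 3 were higher and 4 lower (1 to 4 higher and 0 to 5 lower with 1 library left out, and none lower without wild-type replicate 4), of 19 cell cycle genes 2 were higher and 1 lower, and of 9 genes of cuticular hydrocarbon synthesis none was higher and 1, eloF, lower. Of 25 genes of the ecdysone and juvenile hormone response 2 were higher and 2 lower, with the juvenile hormone target Kr-h1 at 17.6, 24.9, 26.9 and 24.7 CPM in Zhr1 males and 33.4, 27.3, 35.4 and 30 CPM in wild-type males (log2 fold change -0.43 ± 0.12, adjusted p = 0.0119). Of 7 genes of ecdysteroid synthesis 1 was higher and 1 lower. Of 4 genes known for male-biased levels in head and fat body 2 were higher, takeout (to) among them at 45.6, 27.8, 17.6 and 12.1 CPM in Zhr1 males and 11.1, 10.4, 9.28 and 10.5 CPM in wild-type males (log2 fold change 1.32 ± 0.28, adjusted p = 0.00214), where 3 of the Zhr1 libraries lay well above wild type and replicate 4 only slightly.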
